A study of Homo sapiens with 24 samples.

Results

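ISG15, IFI44, OASL, IFI27, BST2 and IRF7 are 6 human genes that interferon switches on, and they are 6 of the 16591 gene symbols for which RPKM (reads scaled by gene length and library depth) were deposited. They were taken by symbol, and each had a value in each of 24 libraries. The libraries come from 4 human cancer cell lines, the breast lines BT549 and MDAMB436 and the ovarian lines OVCAR8 and COV362. Cells received DMSO as vehicle or 5 µM EPZ015666, which blocks PRMT5, an enzyme that methylates arginines in proteins, and poly(A) RNA was sequenced with a stranded protocol. BT549 and OVCAR8 were sampled at day 3 and day 5 and COV362 and MDAMB436 at day 5. Each of the 12 groups of line, treatment and day holds 2 libraries, A and B. The labels name no genetic change and no added interferon in any group, and each cancer type is represented by 2 lines. Whether A and B were grown as separate cultures is not stated, so that the spread on which the p-values rest may be only technical.

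Cells that sense foreign or misplaced nucleic acid make interferon, which binds receptors on the same and on neighbouring cells. The receptors activate the kinases JAK1 and TYK2, and these activate a transcription factor complex, with STAT2 and IRF9 among its parts, that binds the interferon-stimulated response element in front of target genes. ISG15 is a small ubiquitin-like protein that is joined to other proteins and also secreted. IFI44 is a cytoplasmic interferon-induced protein, and OASL is a relative of the oligoadenylate synthetases that lacks their activity and aids RNA sensing by RIG-I. IFI27 is a small membrane protein, BST2 (tetherin) ties enveloped virus particles to the cell surface, and IRF7 is the transcription factor that amplifies interferon gene expression. Many tumour lines keep part of this programme on without added interferon.

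The response element has a core of repeated GAAA, and the stretches before the start sites are shown because they are what several of the 6 genes have in common in sequence. RefSeq windows on GRCh38.p14, from 250 bases before to 50 bases after a transcript start, were found for ISG15, IFI44, IFI27 and BST2. The motif marked below was GAAA followed by any 2 bases and a second GAAA, which reads TTTC, any 2 bases and TTTC on the other strand. Both strands were searched and overlapping matches were allowed. Capitals mark the matched bases in the sequences below, which are written 5′ to 3′ on the strand of the gene.
ISG15: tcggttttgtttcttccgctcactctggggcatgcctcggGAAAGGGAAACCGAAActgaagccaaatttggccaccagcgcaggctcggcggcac
IFI44: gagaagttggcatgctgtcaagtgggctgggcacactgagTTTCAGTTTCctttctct
IFI27: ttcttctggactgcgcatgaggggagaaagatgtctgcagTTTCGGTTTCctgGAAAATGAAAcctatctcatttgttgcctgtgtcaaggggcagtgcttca
BST2: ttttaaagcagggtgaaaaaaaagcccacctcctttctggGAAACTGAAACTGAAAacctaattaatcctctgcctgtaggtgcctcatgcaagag
The ISG15 stretch is chr1:1013344-1013439 on the plus strand, with 2 overlapping matches that begin 113 and 107 bases before the start. The IFI44 stretch is chr1:78649731-78649788 on the plus strand, with 1 match on the opposite strand that begins 18 bases before the start. The IFI27 stretch is chr14:94110588-94110690 on the plus strand, with 2 matches, 1 on each strand, that begin 108 and 95 bases before the start. The BST2 stretch is chr19:17405705-17405800 on the minus strand, with 2 overlapping matches that begin 130 and 124 bases before the start.

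All 4 genes with a window held a match, compared with 3.57% of 35116 windows and 3.73% of the 9779 genes of the deposited table that have one. Of the 37 other interferon-stimulated genes with a window, from a list of 55 described further on, 23 held a match (62.2%). A match is a run of letters and not evidence of binding.

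**Figure D1:**
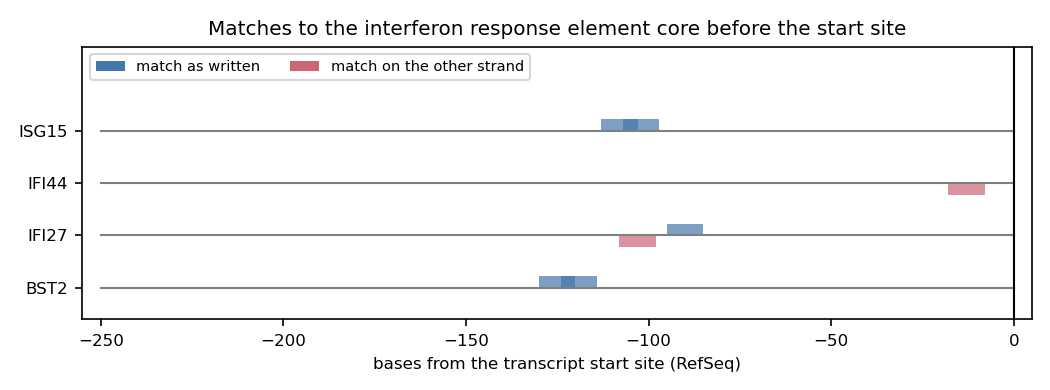
Position of each match to the repeated GAAA motif before the RefSeq transcript start of BST2, IFI27, IFI44 and ISG15. The horizontal axis is the distance from the start in bases, and boxes above a line are matches as written and boxes below it matches on the other strand. The matches of ISG15, IFI27 and BST2 begin 95 to 130 bases before the start, and that of IFI44 begins 18 bases before it.

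In GENCODE v29 on GRCh38, ISG15 lies on chromosome 1 from 1001138 to 1014540 and IFI44 on the same chromosome from 78649796 to 78664078, both on the plus strand. OASL lies on chromosome 12 from 121019111 to 121039242 on the minus strand, IFI27 on chromosome 14 from 94104836 to 94116698 on the plus strand, BST2 on chromosome 19 from 17402939 to 17405648 on the minus strand, and IRF7 on chromosome 11 from 612553 to 615999 on the minus strand. The deposited RPKM were divided by these whole spans, introns included. The span is 14.2 times the length of the annotated exons in ISG15 and 1.31 times in IRF7, so levels are compared between genes only after division by exon length. AL645608.3 and AL645608.1 overlap ISG15 on the opposite strand, and whether strand was used in counting is not stated in the labels.

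The scaled total behind the values ran from 23.09 to 45.56 M reads per library. The ribosomal RNA genes FP671120.1, FP671120.4, FP236383.1 and FP236383.3 held 4.54% of the reads of OVCAR8 under EPZ015666 at day 5, library B, and 1.39% of BT549 under EPZ015666 at day 3, library A, with a median of 0.289% over the libraries. Without the first of these, 5 of 5 tested members were still lower in OVCAR8 at day 5, and without the second 4 of 4 in BT549 at day 3. Of 5 epithelial markers with values (EPCAM, KRT7, KRT8, KRT18 and KRT19), 1 had a mean of at least 1 RPKM in BT549, 2 in MDAMB436, 3 in OVCAR8 and 5 in COV362. KRT18 was above 1 RPKM in each line, and EPCAM was under 0.1 RPKM in BT549 and MDAMB436. Of 2 breast markers with values, GATA3, a breast luminal factor, was 4.21 RPKM in BT549 and 0.0589 RPKM in MDAMB436 at day 5 under DMSO. The other, KRT14, was 0 RPKM in BT549 and 0.0262 RPKM in MDAMB436 in the same libraries. Of 6 ovarian and Müllerian markers, again at day 5 under DMSO, PAX8 was 0.349 RPKM in COV362 and 0.0699 in OVCAR8. In the same order WT1 was 0.208 and 0.0387 RPKM, MUC16 0.595 and 0, SOX17 58.9 and 0.00555, and EMX2 17.6 and 0. MSLN was 22.2 and 47.3 RPKM in these lines and 3.08 in the breast line BT549, and MDAMB436 held 2.1 RPKM of SOX17 and 1.96 of EMX2. PRMT5 itself, the target of the drug, was at 2.26 to 5.16 RPKM in the 4 lines under DMSO at day 5.

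Under DMSO at day 5, each of the 6 genes was highest in COV362, whose 2 libraries lay above those of the other 3 lines. For ISG15 the order was COV362 at 21.4 ± 0.495 RPKM (SD, n = 2), BT549 at 8.77 ± 0.0505, MDAMB436 at 7.30 ± 0.496 and OVCAR8 at 3.05 ± 0.163, with no overlap between neighbours. For IFI44, OASL and BST2 the order was COV362, MDAMB436, OVCAR8 and BT549, again with no overlap. From highest to lowest line, IFI44 spanned 5.55-fold, BST2 27.5-fold and OASL 30.9-fold. IFI27 spanned 234-fold, from 39.5 ± 2.53 RPKM in COV362 through 3.07 ± 0.0321 in OVCAR8 and 0.343 ± 0.0413 in BT549 to 0.169 ± 0.0279 in MDAMB436. IRF7 spanned 1.52-fold, and the libraries of OVCAR8 and MDAMB436 overlapped. IFI27 in BT549 and MDAMB436 and OASL in BT549 are thus near 0 RPKM and close to silent, although 91 to 106 reads in BT549 and 54 to 64 in MDAMB436 were counted in each DMSO library at day 5.

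Per kilobase of exon, BST2 was the most abundant of the 6 in COV362 (516 ± 13.5 exonic RPKM under DMSO at day 5), MDAMB436 (311 ± 15.2) and OVCAR8 (186 ± 9.14). These values divide all reads of a gene by its exon length, and whether reads in introns were counted is not stated. ISG15 ranked next in these lines and first in BT549, at 125 ± 0.719 exonic RPKM against 18.7 ± 1.54 for BST2. In COV362 the exonic levels of BST2, ISG15 and IFI27 were higher than those of at least 98% of all genes. The level of IRF7 varied least between the 4 lines, at 5.47 to 8.33 exonic RPKM. The effector mRNAs therefore made up different mixtures in the vehicle cultures of the lines at day 5.

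**Figure D2:**
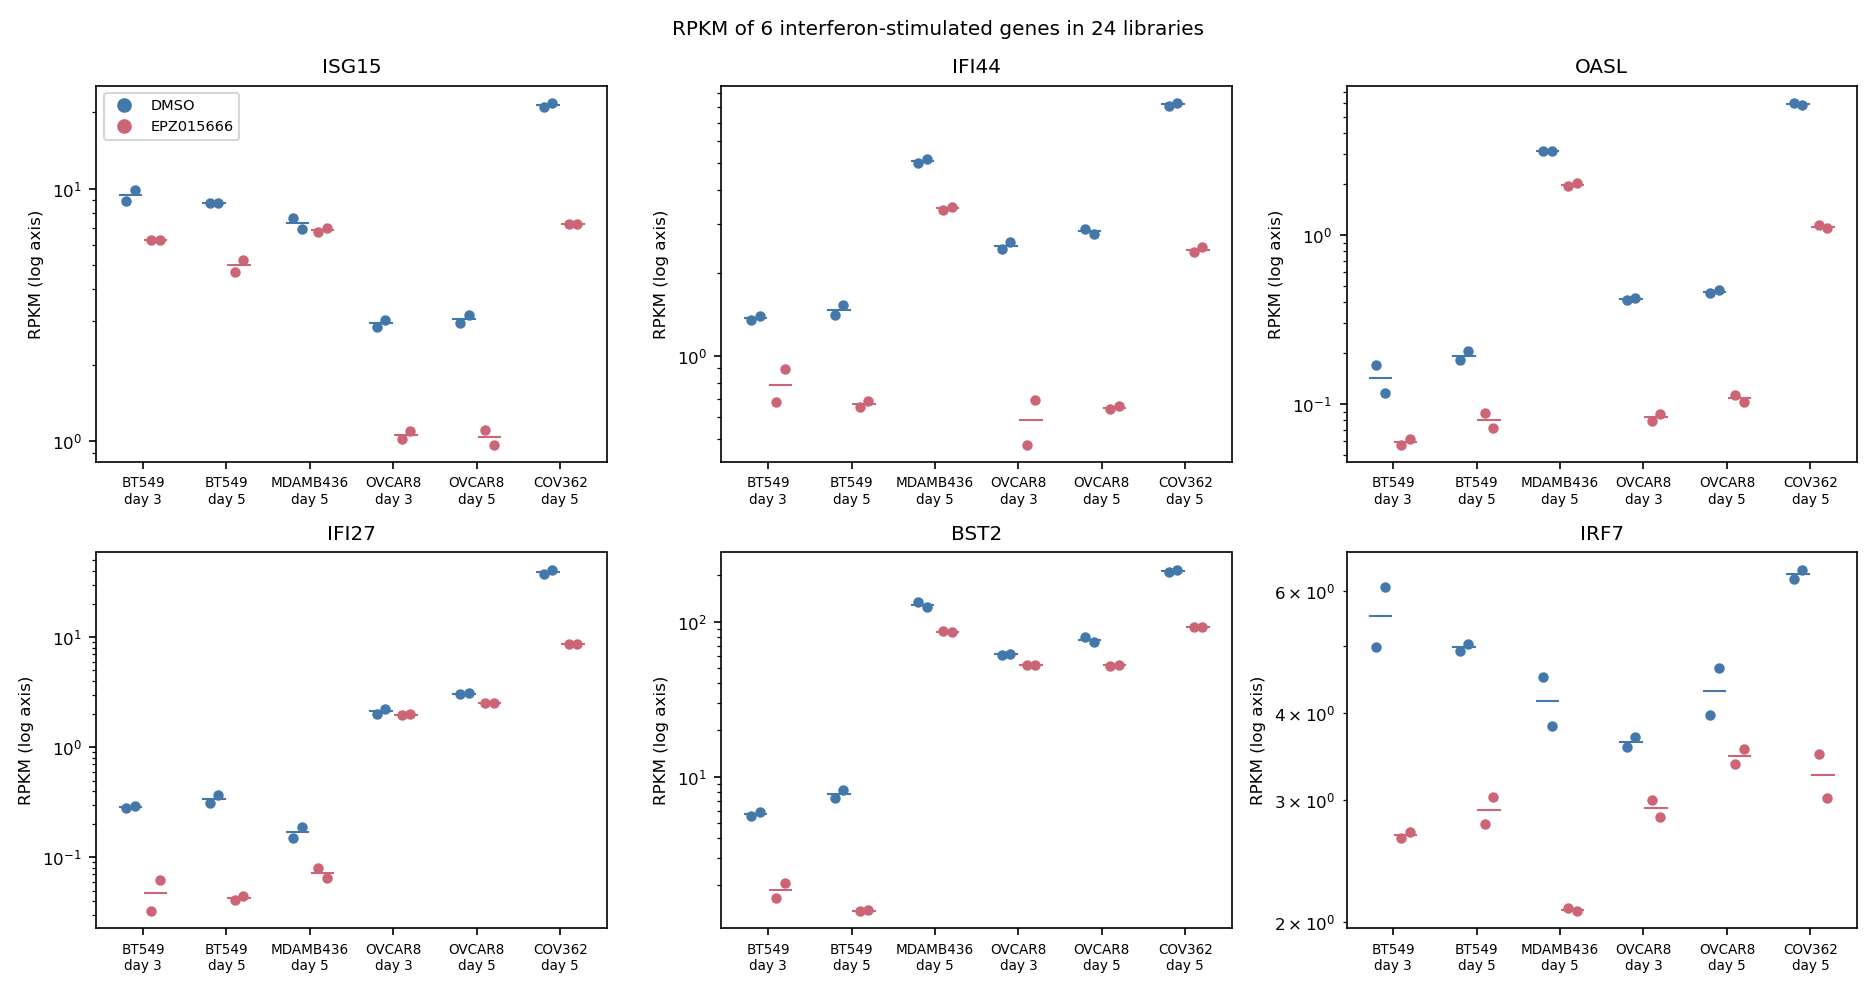
RPKM of the 6 genes on log axes, one panel per gene. Points are libraries, 2 per group, short bars are their means, blue is DMSO and red is EPZ015666. The red points lie under the blue points in each panel and group except ISG15 in MDAMB436, where they overlap.

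ISG15, the ubiquitin-like modifier, fell under EPZ015666 in 3 of the 4 lines. Its RPKM in COV362 was 21.1 and 21.8 with DMSO and 7.23 and 7.22 with EPZ015666, and the groups did not overlap. In OVCAR8 at day 5 it was 2.93 and 3.16 RPKM with DMSO and 1.11 and 0.970 with EPZ015666. In BT549 at day 5 it was 8.81 and 8.74 RPKM with DMSO and 4.69 and 5.23 with EPZ015666. The EPZ015666 to DMSO ratios were 0.337, 0.342 and 0.566. Changes were tested as log2(RPKM + 1) of EPZ015666 minus DMSO with limma, at a Benjamini-Hochberg adjusted p under 0.05 over all tested genes, a scale that understates the change of low genes. On it ISG15 fell by 1.45 ± 0.03 (SE) in COV362 (limma adjusted p = 9.69e-05), by 0.99 ± 0.05 in OVCAR8 (adjusted p = 4.59e-05) and by 0.71 ± 0.06 in BT549 (adjusted p = 0.00025). At day 3 the same gene was 8.95 and 9.91 RPKM with DMSO and 6.27 and 6.26 with EPZ015666 in BT549, a ratio of 0.664. The OVCAR8 libraries at day 3 held 2.84 and 3.02 RPKM with DMSO and 1.02 and 1.10 with EPZ015666, a ratio of 0.363. Both day 3 differences passed the test, at limma adjusted p = 0.00267 and 0.000136. MDAMB436 stood apart, with 7.65 and 6.95 RPKM with DMSO and 6.74 and 6.998 with EPZ015666. There the groups overlapped and the log2 change of -0.08, with a 95% interval of -0.22 to 0.07, did not pass (limma adjusted p = 0.307).

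IFI44 fell in all 6 comparisons. In COV362 it was 8.08 and 8.25 RPKM with DMSO and 2.38 and 2.48 with EPZ015666, a ratio of 0.298. OVCAR8 at day 5 held 2.87 and 2.77 RPKM with DMSO and 0.641 and 0.655 with EPZ015666, a ratio of 0.230. At day 3 in OVCAR8 it was 2.43 and 2.59 RPKM with DMSO and 0.476 and 0.691 with EPZ015666, a ratio of 0.232. The OVCAR8 ratios at both days were the lowest for IFI44. The BT549 libraries at day 5 held 1.41 and 1.53 RPKM with DMSO and 0.655 and 0.683 with EPZ015666 (ratio 0.455), and at day 3 1.35 and 1.39 against 0.679 and 0.894 (ratio 0.573). In MDAMB436 it was 4.99 and 5.19 RPKM with DMSO and 3.38 and 3.46 with EPZ015666, a ratio of 0.672. No group overlapped its vehicle group, and the limma adjusted p-values ran from 5e-05 in OVCAR8 at day 5 to 0.00467 in BT549 at day 3.

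OASL, the inactive synthetase relative, passed the minimum of 1 RPKM for testing in COV362 and MDAMB436. In COV362 it was 6.02 and 5.86 RPKM with DMSO and 1.14 and 1.10 with EPZ015666, a ratio of 0.188 and a log2 change of -1.71 ± 0.03 (limma adjusted p = 9.69e-05). In MDAMB436 it was 3.12 and 3.16 RPKM with DMSO and 1.94 and 2.04 with EPZ015666, a ratio of 0.633 (adjusted p = 0.0025). Both lines separated the treatments fully. In OVCAR8 the gene was between 0.414 and 0.469 RPKM in the 4 DMSO libraries and between 0.0791 and 0.113 in the 4 EPZ015666 libraries, from 41 to 73 reads each. In BT549 it was 0.116 to 0.205 RPKM in the 4 DMSO libraries and 0.0573 to 0.0889 in the 4 EPZ015666 libraries, from 30 to 44 reads each. Whole reads could be recovered from the RPKM, and a limma-voom fit on them, whose changes are log2 of reads scaled to depth without the pseudocount of 1, covers these low levels. In that fit OASL fell in OVCAR8 by 2.09 ± 0.16 at day 5 and 2.31 ± 0.18 at day 3, and in BT549 by 1.25 ± 0.24 and 1.21 ± 0.26, the highest adjusted p of these being 0.00253.

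IFI27 had the widest range of responses. In COV362, where it was abundant, it was 37.8 and 41.3 RPKM with DMSO and 8.67 and 8.76 with EPZ015666. It fell there by 2.06 ± 0.05 in log2(RPKM + 1) (limma adjusted p = 9.97e-05), a ratio of 0.220. In OVCAR8 at day 5 it was 3.05 and 3.09 RPKM with DMSO and 2.54 in both EPZ015666 libraries, a ratio of 0.827 (adjusted p = 0.00454). The OVCAR8 call has a direction that rests on the vehicle of the same day. Against the DMSO libraries of day 3, which held 2.02 and 2.23 RPKM, the day 5 EPZ015666 libraries were higher, with a log2 change of 0.18 (adjusted p = 0.0103). At day 3 in OVCAR8 the EPZ015666 libraries held 1.95 and 2.01 RPKM, and the log2 change of -0.07 did not pass (limma adjusted p = 0.194). In BT549 the few reads fell further in proportion: 93 and 106 reads with DMSO and 12 and 13 with EPZ015666 at day 5, and 77 and 91 against 10 and 21 at day 3. The RPKM ratios were 0.125 and 0.166, and limma-voom on the reads called both (adjusted p = 2.56e-07 and 4.96e-06). In MDAMB436 there were 54 and 64 reads with DMSO and 29 and 26 with EPZ015666, a ratio of 0.428 in RPKM (limma-voom adjusted p = 0.000846).

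BST2, which tethers virus particles, fell in all 6 comparisons. In BT549 at day 5 it was 7.29 and 8.18 RPKM with DMSO and 1.35 and 1.37 with EPZ015666, a ratio of 0.176 and a log2 change of -1.88 ± 0.08 (limma adjusted p = 1.82e-05). At day 3 the BT549 values were 5.56 and 5.87 RPKM against 1.63 and 2.05, a ratio of 0.322 (adjusted p = 0.000381). Its lowest ratios were thus in the line where it was least abundant. In COV362 it was 209 and 217 RPKM with DMSO and 92.4 and 92.1 with EPZ015666, a ratio of 0.433. In MDAMB436 it was 133 and 124 RPKM with DMSO and 87.0 and 85.2 with EPZ015666, a ratio of 0.670. OVCAR8 at day 5 held 79.3 and 73.9 RPKM with DMSO and 51.8 and 52.4 with EPZ015666, a ratio of 0.681. These day 5 groups did not overlap, with limma adjusted p = 0.000114, 0.00293 and 0.000126. The OVCAR8 libraries at day 3 held 60.7 and 62.2 RPKM with DMSO and 52.6 and 52.7 with EPZ015666, a ratio of 0.857 (limma adjusted p = 0.0075). Without DMSO library B this day 3 call was lost (adjusted p = 0.0532).

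IRF7, the only transcription factor among the 6, fell in all 6 comparisons, least in OVCAR8. In MDAMB436 it was 4.51 and 3.83 RPKM with DMSO and 2.09 and 2.07 with EPZ015666, a ratio of 0.499 (limma adjusted p = 0.00332). In COV362 it was 6.26 and 6.45 RPKM with DMSO and 3.49 and 3.02 with EPZ015666, a ratio of 0.512 (adjusted p = 0.00065). MDAMB436, in which ISG15 did not pass, thus had one of the lower IRF7 ratios. In BT549 it was 4.93 and 5.05 RPKM against 2.77 and 3.03 at day 5 (ratio 0.582, limma adjusted p = 0.00116) and 4.99 and 6.08 against 2.65 and 2.69 at day 3 (ratio 0.482, adjusted p = 0.00142). In OVCAR8 it was 3.98 and 4.65 RPKM against 3.38 and 3.55 at day 5 and 3.58 and 3.70 against 3.00 and 2.83 at day 3. The OVCAR8 ratios were 0.804 and 0.801, with no overlap of groups and limma adjusted p = 0.015 and 0.0241. They are the least secure of the calls. At day 5 the call was lost without EPZ015666 library A (adjusted p = 0.0761), and against DMSO of day 3 the log2 change was -0.05 (adjusted p = 0.508). At day 3 it was lost without any 1 of the 4 libraries (adjusted p = 0.0559 to 0.107) and without the filter on low values (adjusted p = 0.0529).

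Counted together, the 6 genes and 6 comparisons gave 36 pairs, of which 29 could be tested, 27 were called lower, 0 were called higher and 2 were not called. The 2 are ISG15 in MDAMB436 and IFI27 in OVCAR8 at day 3. In BT549 4 of 4 tested members fell at day 5, when 22.7% of all tested genes fell, and 4 of 4 at day 3, when 10.8% did. In OVCAR8 5 of 5 fell at day 5 and 4 of 5 at day 3, against 35.1% and 21.4% of all tested genes. All 6 fell in COV362, against 31.5%, and 4 of 5 in MDAMB436, against 23.2%. The median log2 change of the tested members was -1.43 in COV362, where the median of all genes was 0.03, and -0.67 in both BT549 comparisons, where it was -0.01 at day 5 and 0.01 at day 3. It was -0.47 in MDAMB436, -0.55 in OVCAR8 at day 5 and -0.25 at day 3, with medians of all genes of -0.01, -0.04 and -0.01.

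The fit on recovered reads could use all 36 pairs and called 34 lower and the same 2 not. The share of all genes that the fit on reads called lower was 22.9% in BT549 at day 5, 13.2% at day 3, 28.4% and 20.2% in OVCAR8, 36.2% in COV362 and 25.2% in MDAMB436. In 35 of the 36 pairs both EPZ015666 libraries lay under both DMSO libraries. Over all genes with a value above 0 that share was 33.2% in BT549 at day 5, 24.6% at day 3, 33.9% and 30.4% in OVCAR8, 37.8% in COV362 and 31.5% in MDAMB436. IFI44, BST2 and IRF7 were called lower in all 4 lines at day 5, as were 7.33% of the genes tested in each line. With recovered reads IFI44, OASL, BST2 and IRF7 were lower in all 6 comparisons, as were 3.83% of the genes tested in each.

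**Figure D3:**
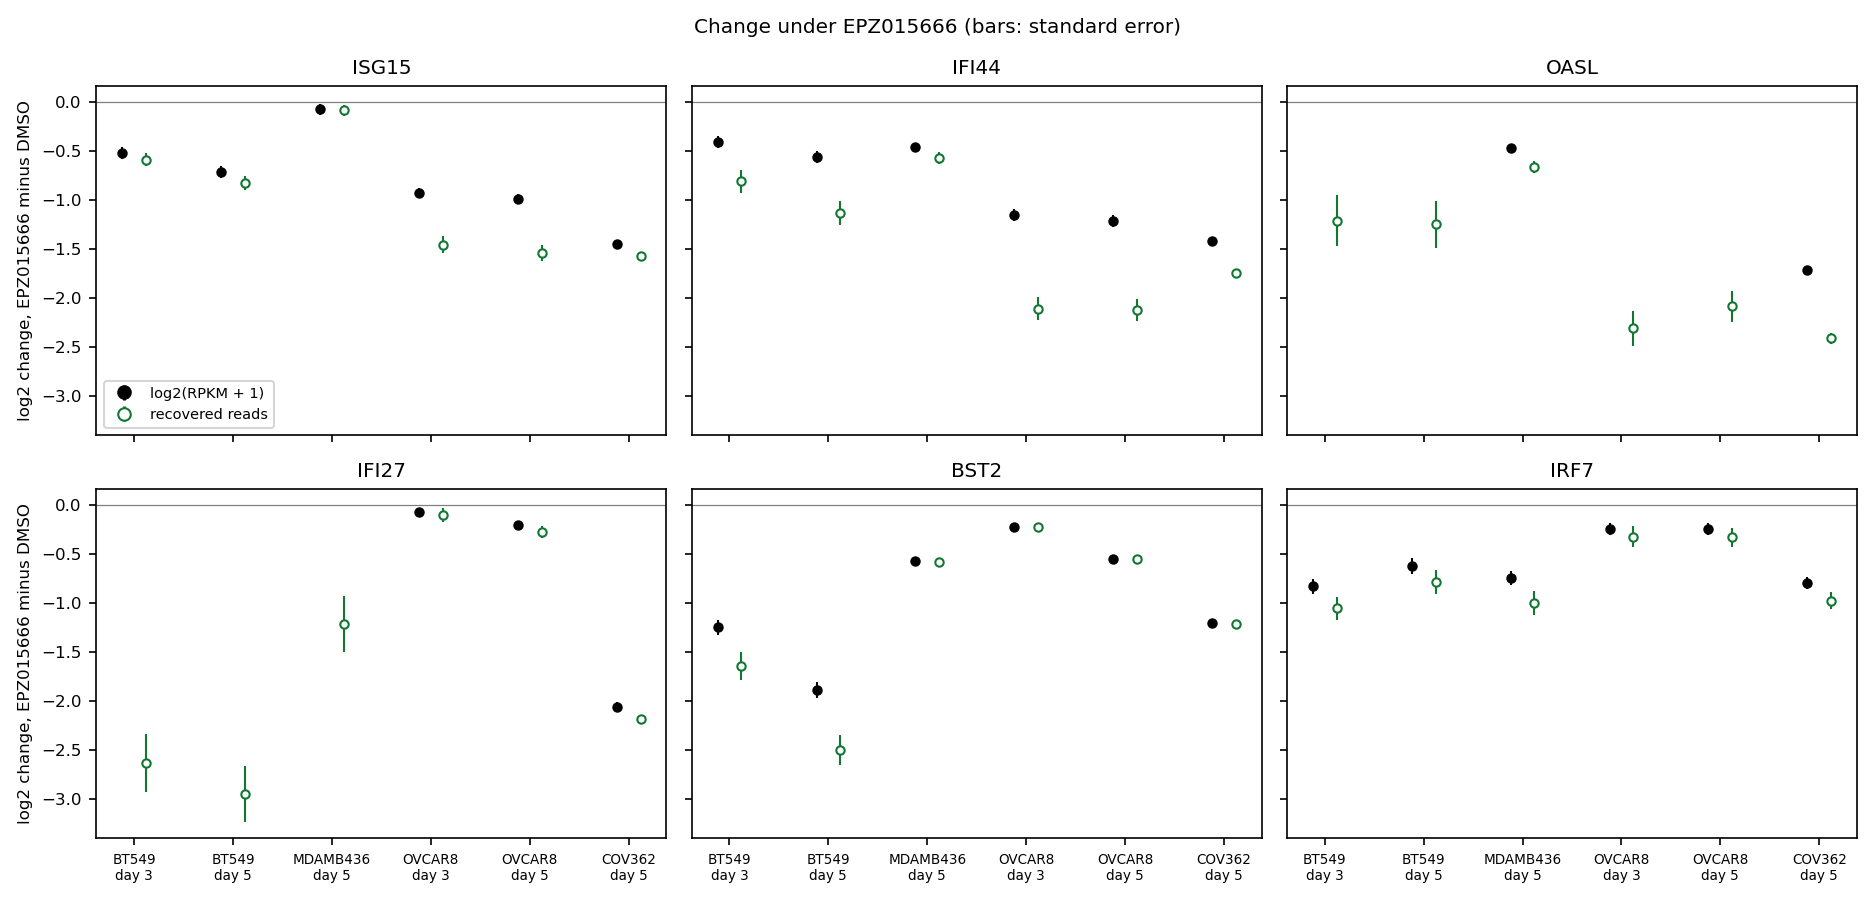
Change of each gene under EPZ015666 relative to DMSO of the same line and day, in log2 units, with standard errors as bars. Filled points are log2(RPKM + 1), shown where a gene reached a mean of 1 RPKM in the line, and open points are recovered reads. ISG15 in MDAMB436 and IFI27 in OVCAR8 at day 3 lie nearest 0, and IFI27 in BT549 at day 5 is lowest, at -2.95.

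The size of the fall differed between lines for each member that could be tested in all 4. Over the 4 lines the mean log2 change at day 5 was -1.05 ± 0.03 for BST2, -0.91 ± 0.03 for IFI44, -0.81 ± 0.03 for ISG15 and -0.60 ± 0.04 for IRF7, and these 4 of 4 compare with 36.9% of genes lower. An F test of the difference among lines passed for all 4, as it did for 74.7% of genes, so differing between lines is not particular to them. The 6 pairs of lines were each tested, with p-values adjusted over genes within a pair and not over the pairs. Of the tested members, 4 of 4 differed between BT549 and OVCAR8 (30.2% of all genes), 2 of 4 between BT549 and MDAMB436 (26.6%) and 3 of 4 between BT549 and COV362 (38.9%). Likewise 3 of 4 differed between MDAMB436 and OVCAR8 (44.2%), 4 of 5 between MDAMB436 and COV362 (49.6%) and 4 of 5 between OVCAR8 and COV362 (59.3%).

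For ISG15, MDAMB436 differed from each other line. The log2(RPKM + 1) change was more negative than in MDAMB436 by 0.64 in BT549 (limma adjusted p = 0.00119), by 0.91 in OVCAR8 (adjusted p = 7.23e-05) and by 1.37 in COV362 (adjusted p = 3.82e-05). OVCAR8 and COV362 differed by 0.46 (adjusted p = 0.000317), a call that depends on the scale. With a pseudocount of 0.1 the difference was 0.09 (adjusted p = 0.427), and in recovered reads it was 0.03 with a 95% interval of -0.16 to 0.22. BT549 minus OVCAR8 was 0.27 for ISG15 (limma adjusted p = 0.0271), and this call was lost without any 1 of BT549 DMSO A, DMSO B or EPZ015666 B, or OVCAR8 DMSO B or EPZ015666 B (adjusted p = 0.06 to 0.104). In recovered reads the difference was 0.72 (limma-voom adjusted p = 9.33e-05). The ISG15 ratios of the 2 ovarian lines, 0.342 and 0.337, are close.

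For BST2 the largest contrast was with BT549. Its fall there was larger than in MDAMB436 by 1.31 (limma adjusted p = 9.7e-05), than in OVCAR8 by 1.34 (adjusted p = 8.88e-06) and than in COV362 by 0.69 (adjusted p = 0.000867). MDAMB436 and OVCAR8 differed by -0.03 ± 0.06 for this gene, which did not pass (adjusted p = 0.753). OVCAR8 had the weaker IRF7 effect in comparison with COV362 (a difference of 0.54, limma adjusted p = 0.00117), with MDAMB436 (-0.50 for MDAMB436 minus OVCAR8, adjusted p = 0.00435) and with BT549 (-0.37 for BT549 minus OVCAR8, adjusted p = 0.0229). The last of these was lost without any 1 of BT549 DMSO B, BT549 EPZ015666 A, OVCAR8 DMSO A or OVCAR8 EPZ015666 B, at adjusted p = 0.0666 to 0.088. In OVCAR8, therefore, ISG15, IFI44 and OASL had ratios of 0.200 to 0.363 while IFI27, BST2 and IRF7 had ratios of 0.681 to 0.932.

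The IFI44 effect was smaller in MDAMB436 than in OVCAR8 by 0.75 (limma adjusted p = 0.000211) and than in COV362 by 0.96 (adjusted p = 3.82e-05). Between OVCAR8 and COV362 the difference of 0.20 did not pass (adjusted p = 0.052), and in recovered reads it turned to -0.37 (limma-voom adjusted p = 0.0122), with the larger fall in OVCAR8. IFI44 is under 1 RPKM in OVCAR8 and BT549 with the drug, where the pseudocount of 1 compresses a change. BT549 minus MDAMB436 was -0.10 for IFI44, which did not pass (limma adjusted p = 0.344), and this too depends on the scale. With a pseudocount of 0.1 it was -0.47 (limma adjusted p = 0.0352), and in recovered reads -0.56 (limma-voom adjusted p = 0.00448). For OASL, COV362 had the larger fall than MDAMB436, by 1.24 ± 0.04 (limma adjusted p = 2.12e-05). For IFI27, COV362 had the larger fall than OVCAR8, by 1.86 ± 0.06 (adjusted p = 3.83e-07).

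Time was tested in BT549 and OVCAR8. BST2 was the only 1 of the tested members whose drug effect differed between days, 1 of 4 in BT549 and 1 of 5 in OVCAR8. The drug effect was more negative at day 5 for 4.45% and 5.15% of genes in these lines. The fall of BST2 was larger at day 5 than at day 3 by 0.64 ± 0.11 in BT549 (limma adjusted p = 0.0315) and by 0.33 ± 0.06 in OVCAR8 (adjusted p = 0.0342). Its DMSO libraries also differed between days. From day 3 to day 5 under DMSO it rose by 0.38 ± 0.08 in BT549 (adjusted p = 0.0224) and by 0.31 ± 0.04 in OVCAR8 (adjusted p = 0.00304). In OVCAR8 the 4 EPZ015666 libraries of both days held 51.8 to 52.7 RPKM, so there it was the vehicle level that moved. The calls on the difference of days were fragile. In OVCAR8 the call was lost without any 1 of the 8 libraries (adjusted p = 0.0535 to 0.107), and in BT549 without 6 of the 8 (adjusted p = 0.0519 to 0.143), namely both DMSO and both EPZ015666 libraries of day 5, DMSO A and EPZ015666 B of day 3. In recovered reads both held, at limma-voom adjusted p = 0.014 and 0.0014.

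IFI27 also rose with time under DMSO in OVCAR8, by 0.38 ± 0.04 (limma adjusted p = 0.00175), so that 2 of 5 tested members rose, with 20.7% of genes higher. In BT549 1 of 4 rose, with 10.7% of genes higher, and that call on BST2 was lost without any 1 of the 4 DMSO libraries (adjusted p = 0.0511 to 0.122). For ISG15, IFI44 and IRF7 the drug effect at day 5 minus that at day 3 lay between -0.19 and 0.21 in both lines and did not pass. At day 3 the lines could be compared directly. The effect in BT549 minus that in OVCAR8 was -1.03 for BST2 and -0.58 for IRF7, and 0.74 for IFI44 and 0.41 for ISG15, with the highest limma adjusted p at 0.011. These are 2 of 4 members lower and 2 of 4 higher, against 4.88% and 6.59% of genes.

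Upstream of the 6 genes, the 2 ligand genes that could be read had few or no reads. Of 10 interferon genes listed, IFNB1 and IFNL1 are in the table, the other 8 were not analysed here, and neither of the 2 had more than 9 reads in any library. IFNB1 had 0 reads in each OVCAR8 library and at most 1 in BT549. Neither reached the level for testing.

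Of 17 genes for receptors and signal transduction, 12 are in the table and 7 or 8 were tested in each line. In COV362 5 of 8 fell and 1 rose, where 31.5% of all tested genes fell, with STAT2, a part of the complex that binds the response element, at 0.546-fold (limma adjusted p = 0.000216). In OVCAR8 at day 5 3 of 8 fell and 3 rose, near the 35.1% of all tested genes that fell, and at day 3 3 of 8 fell and 1 rose (21.4% of all fell). At day 5 in OVCAR8 STAT2 was at 0.723-fold (limma adjusted p = 0.000465), and the kinase gene JAK1 rose 1.23-fold (adjusted p = 0.00231). JAK1 fell in BT549, to 0.841-fold at day 5 and 0.856-fold at day 3, and in MDAMB436, to 0.811-fold (limma adjusted p = 0.00708, 0.0207 and 0.0142). In BT549 at day 5 4 of 7 fell, among them SOCS3, the feedback inhibitor of cytokine receptors, at 0.739-fold (adjusted p = 0.00217), and at day 3 2 of 7 fell, where 22.7% and 10.8% of all tested genes fell. In MDAMB436 4 of 8 fell, against 23.2% of all, with SOCS3 at 0.668-fold (adjusted p = 0.00422). The median log2 change of the list lay between -0.07 and -0.19 in the 6 comparisons.

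Among 15 sensors and adaptors, 11 are in the table and 5 or 6 were tested. TMEM173, the gene of STING, an adaptor for cytosolic DNA, fell to 0.473-fold in BT549 at day 5 (limma adjusted p = 0.000547). It was at 0.566-fold in OVCAR8 at day 5 and 0.688-fold in COV362 (adjusted p = 0.000323 and 0.000689). IFIH1, the RNA sensor MDA5, fell to 0.472-fold in COV362 (adjusted p = 0.000218). The list had 1 of 6 lower in BT549 at day 5 and 2 of 6 at day 3, against 22.7% and 10.8% of all tested genes. It had 3 of 5 lower in OVCAR8 at both days (35.1% and 21.4% of all), 3 of 5 in COV362 (31.5%) and 2 of 5 in MDAMB436 (23.2%), with none higher. In recovered reads, which take in lower levels, OVCAR8 at day 5 had 2 of 10 lower, against 28.4% of all genes, and 3 higher, with IFIH1 at 1.39-fold (limma-voom adjusted p = 0.000472). The same fit had 8 of 11 lower and 0 higher in MDAMB436, and 8 of 11 lower and 2 higher in COV362 (25.2% and 36.2% of all lower). OVCAR8 at day 3 had 4 of 10 lower and 2 higher (20.2% of all lower). BT549 had 4 of 11 lower at both days, with 1 higher at day 5 and 0 at day 3 (22.9% and 13.2% of all lower). In limma on log2(RPKM + 1), the enzymes that attach ISG15 to proteins had 3 of 3 lower in COV362, where HERC5, the ligase, fell to 0.370-fold, UBA7, the activating enzyme, to 0.523-fold and UBE2L6, the conjugating enzyme, to 0.622-fold (adjusted p = 0.000133, 0.000301 and 0.000239). In MDAMB436, where ISG15 itself did not pass, UBE2L6 fell to 0.820-fold (adjusted p = 0.0114) and HERC5 was at 1.06-fold (adjusted p = 0.346). In recovered reads, 3 of 4 genes listed for ISG15 conjugation were lower in MDAMB436 (25.2% of all lower) and 4 of 4 in COV362 (36.2%). OVCAR8 had 4 of 4 lower at day 5 and 1 of 4 at day 3 (28.4% and 20.2% of all). BT549 had 2 of 4 and 0 of 4 (22.9% and 13.2%), and 0 were higher in each comparison.

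A list of 55 other interferon-stimulated effectors, 45 of them in the table, shows how far the 6 genes resemble their class. In COV362 29 of 31 tested fell and none rose, against 31.5% of all tested genes lower, with a median log2 change of -0.73. In MDAMB436 16 of 23 fell and 1 rose (median -0.30), against 23.2% of all lower. In BT549 11 of 20 fell and 1 rose at day 5 (median -0.16), with 13 and 0 at day 3 (median -0.23), against 22.7% and 10.8% of all lower. In OVCAR8 9 of 18 fell at both days and 4 rose at day 5 and 2 at day 3 (medians -0.10 and -0.13), against 35.1% and 21.4% of all lower. OVCAR8 thus had falls and rises side by side, and in recovered reads 14 of 37 were lower, against 28.4% of all genes, and 12 higher there at day 5. IFITM2, a membrane protein that blocks virus entry, fell there at day 5 from 57.5 ± 0.0266 to 26.8 ± 1.46 RPKM (limma adjusted p = 3.54e-05), and SAMD9, a cytoplasmic restriction factor, rose from 0.809 ± 0.071 to 1.64 ± 0.0838 RPKM (adjusted p = 0.000132). IFI6, a mitochondrial interferon-induced protein, fell at day 5 to 0.112-fold in COV362, 0.294-fold in BT549, 0.331-fold in MDAMB436 and 0.659-fold in OVCAR8 (adjusted p = 9.97e-05, 1.82e-05, 0.00223 and 0.00112). RSAD2, the antiviral enzyme viperin, fell to 0.156-fold in COV362, and IFI35 to 0.273-fold (adjusted p = 9.97e-05 and 9.69e-05). LY6E was lower in all 4 lines at day 5, at 0.523-fold in BT549, 0.665-fold in OVCAR8, 0.451-fold in COV362 and 0.674-fold in MDAMB436, with the highest adjusted p at 0.0069.

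**Figure D4:**
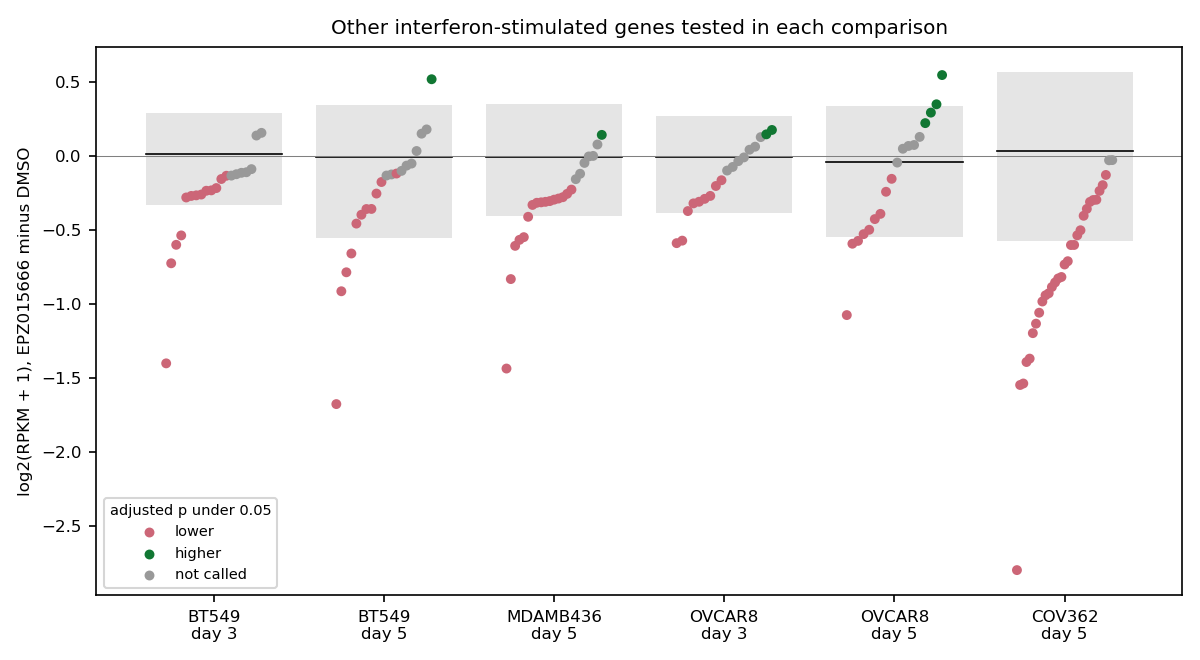
Log2(RPKM + 1) change under EPZ015666 of each tested gene of the list of other interferon-stimulated effectors, by comparison. Red points are lower and green points higher at a limma adjusted p under 0.05, grey points are not called, grey bands span the 5th to the 95th percentile of all tested genes and black lines are their medians. In COV362 29 of 31 points are red, while OVCAR8 has points of all 3 kinds.

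The response element of the promoter windows was set against the falls, a split chosen after the data were seen and given without a test. In COV362 47.5% of the tested genes with a match to the repeated GAAA were lower, compared with 30.9% of those without. The genes with a match take in the members with a window and the other listed effectors counted below. In BT549 at day 5 the shares were 22.3% and 23.8%, in OVCAR8 at day 5 36.8% and 36.4%, and in MDAMB436 28.6% and 24.1%. Of the other listed effectors with a match, 20 of 20 tested were lower in COV362, 11 of 14 in MDAMB436, 7 of 13 in BT549 and 3 of 9 in OVCAR8 at day 5. Without a match, 6 of 7 were lower in COV362, 4 of 6 in MDAMB436, 3 of 4 in BT549 and 3 of 5 in OVCAR8, so that in BT549 and OVCAR8 the share was higher without a match.

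The genes most like each member were ranked by Pearson's r of log2(RPKM + 1), after the mean of each line was taken off, over 24 libraries and 6493 genes. The points share 12 groups and 2 treatments, so r is a description. Nearest to ISG15 were UCP2 (r = 0.98), IFI44 (r = 0.96) and SPATA20 (r = 0.96), and nearest to IFI44 were DHRS1, MSLN and QTRT1 (r = 0.98, 0.97 and 0.97). Among the genes nearest to OASL were SHISA3 and TFAP2A, and nearest to IFI27 were PLSCR1 (r = 0.98), CTDSP2 and STRA6. CAT, UCHL1 and GPR108 were nearest to BST2 (r = 0.98, 0.98 and 0.97), and HELZ2, UBA1 and MAN2C1 to IRF7 (r = 0.96, 0.95 and 0.95). PLSCR1 and HELZ2 are on the interferon lists. Among the members the closest pairs were ISG15 with IFI44 (r = 0.96) and OASL with IFI27 (r = 0.93), and the least alike were OASL and BST2 (r = 0.60).

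Neighbouring genes within 100 kb of the 6, chosen after the data were seen, did not all follow them. In BT549 7 of 15 tested were lower and 3 higher at day 5, and 3 and 0 at day 3, against 22.7% and 10.8% of all tested genes lower. In OVCAR8 4 of 14 were lower and 2 higher at day 5, and 3 and 3 at day 3, against 35.1% and 21.4% of all lower. In COV362 4 of 16 were lower and 9 higher (31.5% of all lower), and in MDAMB436 5 of 16 and 1 (23.2%). In either direction 40.4% and 20% of all tested genes passed in BT549 at day 5 and 3, 56.2% and 37% in OVCAR8, 70.8% in COV362 and 42.2% in MDAMB436. AGRN, which encodes the matrix proteoglycan agrin and begins 5583 bases from the end of ISG15, fell in all 6 comparisons, also in MDAMB436, from 12.7 to 5.56 RPKM (0.437-fold, limma adjusted p = 0.00215). HES4 lies 966 bases from the other end of the GENCODE span of ISG15, and the promoter stretch shown for ISG15 lies inside that span, farther from HES4. HES4 fell in BT549 at day 5 (0.567-fold, adjusted p = 0.00908) and in OVCAR8 at day 5 (0.484-fold, adjusted p = 0.000162) and day 3 (0.671-fold, adjusted p = 0.00303). It rose in COV362 (1.12-fold, adjusted p = 0.00661), where ISG15 fell. MVB12A, which begins 74 bases from BST2, fell to 0.877-fold in OVCAR8 at day 5 and 0.883-fold in COV362 (limma adjusted p = 0.031 and 0.0316), and was at 0.991-fold in MDAMB436 (adjusted p = 0.938). PHRF1, 331 bases from IRF7, rose in COV362 (1.17-fold, adjusted p = 0.00664), where IRF7 fell, and fell in MDAMB436 (0.828-fold, adjusted p = 0.0154), where IRF7 fell too. IFI44L, a relative of IFI44 that lies 3651 bases from it, fell in COV362 from 2.31 to 0.140 RPKM (0.0606-fold, adjusted p = 0.00017).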

How the data were processed

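The authors deposited RPKM for poly(A) RNA of 24 libraries (4 cell lines, 12 groups of 2). The submitters' processing notes name featureCounts and GRCh38. Aligner, annotation and versions: not given in the sources used here. Each nonzero value under 1000 reads, times the gene's span in GENCODE v29, gave a whole number of reads within 0.02 of a read (100% of values), so the lengths behind the RPKM are whole spans and the reads could be recovered.

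The 6 genes and all lists were chosen with earlier results of these data known. Values were taken as log2(RPKM + 1). Genes with a mean of at least 1 RPKM in a line were tested with limma 3.58.1 (R 4.3.3, empirical Bayes with trend), 1 mean per group, per line or over the lines compared. Two-sided p-values were adjusted by Benjamini-Hochberg over all genes tested, and the threshold was 0.05. Named genes are the 6 members, up to 4 genes per list with the smallest adjusted p, and the 3 genes most like each member. The neighbouring genes were named after their values were seen, and some genes that the rule takes are not reported here.

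Alternatives were a pseudocount of 0.1, no filter, a mean of at least 5 RPKM, median-of-ratios scaling, a replicate block, limma-voom on recovered reads (mean of at least 1 CPM), 1 fit of all libraries, fits of 4 libraries, DMSO of day 3 as control, and leaving out each library. The code was tested on simulated data.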

Additional observations from a re-analysis of the deposited data

Results flagged for a closer look

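The results below were singled out because the drug effect differed between days or between lines by a test of the difference, in limma on log2(RPKM + 1) with Benjamini-Hochberg adjustment. The BST2 effect at day 5 minus that at day 3 was -0.64 in BT549 (adjusted p = 0.0315) and -0.33 in OVCAR8 (adjusted p = 0.0342). Differences among the 4 lines at day 5 gave an F statistic of 108.22 for ISG15 (adjusted p = 1.89e-08), 70.41 for IFI44 (adjusted p = 1.49e-07), 107.64 for BST2 (adjusted p = 1.91e-08) and 9.84 for IRF7 (adjusted p = 0.00168). The OASL effect in MDAMB436 minus that in COV362 was 1.24 (adjusted p = 2.12e-05), and the IFI27 effect in OVCAR8 minus that in COV362 was 1.86 (adjusted p = 3.83e-07). At day 3 the effect in BT549 minus that in OVCAR8 was 0.41 for ISG15 (adjusted p = 0.011), 0.74 for IFI44 (adjusted p = 0.000782), -1.03 for BST2 (adjusted p = 0.000139) and -0.58 for IRF7 (adjusted p = 0.00685). The groups hold 2 libraries each, too few for a search for single outlying libraries.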

How the results depend on the processing

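Of the alternatives of member changes under the drug, 390 kept direction and side of the threshold, 8 lost the call and 1 reversed. The reversal is IFI27 in OVCAR8 at day 5, at 0.18 against DMSO of day 3, which left 3 of 5 members lower. For differences between lines and days 954 kept both, 33 lost and 10 gained a call and 1 reversed, IFI44 in OVCAR8 minus COV362, at -0.37 in recovered reads. The cause was not tested. With a library left out, the lone library of its group is assumed to vary like the other groups.

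Shares of genes called are in either direction here, and as reported were 40.4% and 20% in BT549 at day 5 and 3, 56.2% and 37% in OVCAR8, 70.8% in COV362, 42.2% in MDAMB436, 5.97% and 7.46% between days in BT549 and OVCAR8, 16.7% and 36.7% over time under DMSO, 71.7% for the mean effect and 11.5% in BT549 minus OVCAR8 at day 3. Without the filter, the share was 23.2%, 8.57%, 35.6% and 19.9% in BT549 at day 5 and 3 and OVCAR8 at day 5 and 3, 45% in COV362 and 15.2% in MDAMB436. It was 0.709% and 0.927% for day 5 minus day 3 in BT549 and OVCAR8, and 5.65% and 18.1% for their DMSO libraries over time, and 0 members were called between days in either line or over time in BT549. With a mean of at least 5 RPKM fewer members could be tested. There, 1 member was lower in each BT549 and OVCAR8 comparison and in MDAMB436, and 1 rose over time in OVCAR8. Between lines, 1 was lower in BT549 minus MDAMB436, 1 was higher in OVCAR8 minus COV362 and 2 were higher in MDAMB436 minus COV362. In the remaining line differences 0 were lower, and members that were higher were not counted there. For the mean effect and the F test 0 could be tested, and 0 rose in BT549 over time. The share called between days was then 9.55% in BT549 and 17.3% in OVCAR8. Recovered reads gave 10.5% and 15.7% for these, with 4 members lower in BT549 minus MDAMB436, 2 in BT549 minus COV362 and 2 in MDAMB436 minus OVCAR8. In BT549 at day 3, 1 fit of all libraries called 39.8% and a fit of 4 libraries 8.52%.

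With the replicate letter as a block, 1.46% of genes (BT549) and 0.079% (OVCAR8, 0 members) were called between days, and 6.96% in BT549 minus OVCAR8 at day 3. The BST2 difference of days in OVCAR8 lost its call (limma adjusted p = 0.0741), and the block changed no other call on a member. Deviations of same-lettered libraries correlated at -0.20 to 0.21 over the comparisons, each with only 2 pairs, so the letters were not used as pairs.

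Leaving out 1 library at a time, the share called in either direction ran from 22.2% to 44.8% in BT549 at day 5, 9.9% to 17.8% at day 3, 42.7% to 56.7% and 21.8% to 35.4% in OVCAR8, 58.4% to 64.6% in COV362 and 21.5% to 36.7% in MDAMB436. Between days it ran from 0% to 9.73% in BT549 and 0% to 0.0949% in OVCAR8, and over time under DMSO from 2.5% to 18% and 18.6% to 36.5%. For lines it ran from 69.2% to 73% (mean effect), 70.2% to 77.6% (F test), 15.6% to 30.4% (BT549 minus MDAMB436), 21.8% to 36% (BT549 minus OVCAR8), 28.1% to 44.4% (BT549 minus COV362), 35.5% to 43.8% (MDAMB436 minus OVCAR8), 39.9% to 49.3% (MDAMB436 minus COV362), 52.7% to 60.2% (OVCAR8 minus COV362) and 4.92% to 15% (BT549 minus OVCAR8 at day 3). The IRF7 log2 change then ran from -0.338 to -0.158 in OVCAR8 at day 5 and from -0.276 to -0.215 at day 3. The BST2 difference of days ran from -0.744 to -0.533 in BT549 and from -0.377 to -0.278 in OVCAR8. For BT549 minus OVCAR8 at day 5, ISG15 ran from 0.208 to 0.339 and IFI44 from 0.614 to 0.683. In that contrast BST2 ran from -1.41 to -1.26 and IRF7 from -0.461 to -0.281. IFI44 in OVCAR8 minus COV362 ran from 0.184 to 0.225.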
